A study of Homo sapiens with 12 samples.

Results

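The interleukin 6 family is a group of cytokines that act through a common receptor chain, and 9 of its genes were followed here at the transcript level. They are the ligand genes IL6, LIF and IL11, the receptor genes IL6ST, IL6R, LIFR and OSMR, the transcription factor gene STAT3 and the feedback inhibitor gene SOCS3. The members were taken from a list of names chosen with earlier results of these data known. Counts of called members beside shares of all genes are therefore a description. Each of the 9 was read by 1 probe set, out of 18417 genes with a probe set that carries a single gene symbol. The cells were EA.hy 926, an established human hybrid line of endothelial cells from the umbilical vein and the lung carcinoma line A549. Hi cells were kept in Medium 199 supplemented to 9 uM folic acid, the level the labels call normal, and Lo cells had been adapted to that medium without the supplement, at 23 nM folic acid. All media contained 10% fetal calf serum. Confluent cultures received fresh medium, and 24 h later PMX (pemetrexed, an antifolate that blocks thymidylate and purine synthesis) was added at 0.5 uM for 48 h, or not, to give 4 groups of 3 biological replicates on 12 arrays: Hi control, Hi PMX, Lo control and Lo PMX. What the control cultures were given in place of PMX is not stated in the sources used here. Because the Lo cells were a separately adapted culture of 1 line, the folate level and any other difference between the cultures cannot be told apart.

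Interleukin 6, leukaemia inhibitory factor (the product of LIF) and interleukin 11 each bind a receptor that contains gp130, the signalling chain encoded by IL6ST. IL6R encodes the chain that binds interleukin 6, LIFR the partner of gp130 for leukaemia inhibitory factor, and OSMR the partner for oncostatin M. Binding activates JAK kinases, which phosphorylate STAT3, and STAT3 switches on target genes that include SOCS3, whose product blocks the receptor. In endothelial cells the family is known for inducing chemokines and adhesion molecules.

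The upstream sequences of IL6 and IL11 are shown because both ligand genes were higher in Lo PMX than in Hi PMX arrays and because their windows hold different motifs. They are the 250 bases before the first transcribed base in RefSeq (GRCh38.p14), written 5′ to 3′ on the strand of the gene, at chr7:22726950-22727199 (plus strand) for IL6 and chr19:55370464-55370713 (minus strand) for IL11. Capitals mark motif matches.
IL6: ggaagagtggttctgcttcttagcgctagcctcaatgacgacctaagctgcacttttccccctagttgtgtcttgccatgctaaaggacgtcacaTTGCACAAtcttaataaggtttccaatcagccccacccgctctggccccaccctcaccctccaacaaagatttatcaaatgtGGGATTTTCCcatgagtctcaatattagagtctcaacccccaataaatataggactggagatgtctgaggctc
IL11: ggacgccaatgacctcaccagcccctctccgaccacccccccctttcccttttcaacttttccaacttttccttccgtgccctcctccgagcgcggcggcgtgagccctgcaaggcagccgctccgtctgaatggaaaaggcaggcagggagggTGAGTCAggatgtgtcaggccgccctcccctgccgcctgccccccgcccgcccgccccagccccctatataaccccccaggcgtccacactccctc
Motifs were searched on both strands: STAT as TTCNNNGAA, AP-1 as TGANTCA, C/EBP as TTGCNNAA, the TATA box as TATAAA, and NF-kB by its usual consensus. The IL6 window held a C/EBP match 155 to 148 bases and an NF-kB match 73 to 64 bases upstream of the start. The IL11 window held an AP-1 match 96 to 90 bases upstream. Over 35116 RefSeq promoters, windows of the same length held a C/EBP match in 9.05%, an NF-kB match in 5.21%, an AP-1 match in 6.57%, a STAT match in 6.57% and a TATA box in 10.7%. Promoters of 8 of the 9 members were in the sequence table, and LIF was not among them. A STAT match was found in LIFR, in the first and second of its 3 listed promoters, and a C/EBP match in the second LIFR promoter and in OSMR. The second LIFR promoter also held 2 overlapping TATA matches, 202 to 197 bases upstream on the minus strand and 200 to 195 on the plus strand. The windows of IL6ST, IL6R, SOCS3 and STAT3 held none of the 5 motifs. A match is a description of these letters only.

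Values are log2 expression values made by the authors with RMA, so a difference of 1 is a 2-fold difference, and they are given per array because the arrays did not all group with their labels. On the first principal component, with 61.1% of the variance, the array labelled Hi control replicate 3 scored 8.94, next to Lo controls 1 and 2 (7.18 and 6.75), while the other 5 Hi arrays scored from -20.1 to -17.8. Conversely, Lo control replicate 3 fell with the Hi arrays at -19.3, and the Lo PMX arrays scored from 30.4 to 32.2. Fits were therefore made with all 12 arrays and with the 10 that remain without these 2 controls, leaving 2 arrays in each control group. The 2 were singled out because they read like the opposite folate level, so the 10-array fits favour a difference between Lo and Hi controls and are no independent test of one. Leaving them out can also lower the spread shared by all groups for genes in which they deviate. Smaller standard errors and p-values with 10 arrays, in any comparison, can come from that choice. The labelled endothelial nature of the line was read from 8 markers, whose mean ranged from 11.28 to 11.53 in Hi controls 1 and 2, 11.28 to 11.48 in Hi PMX, 10.59 to 10.64 in Lo controls 1 and 2 and 10.13 to 10.23 in Lo PMX arrays. With all 12 arrays the control means of the 8 overlapped, at 10.58 to 11.53 in Hi and 10.59 to 11.34 in Lo. Of these 8, 4 fell on PMX in Lo cells with 12 arrays, where 10.7% of all genes were called. With 10 arrays 5 fell, where 11% were called. All 8 were lower in Lo PMX than in Hi PMX with 12 arrays (22.3% of all genes called) and with 10 (27.7%). VWF, the von Willebrand factor gene, was at 6.68 to 6.88 in Lo PMX against 9.00 to 9.55 in Hi PMX. Among the 10 arrays the mean over 5 epithelial markers did not overlap, at 9.26 to 9.38 in Hi and 9.48 to 9.55 in Lo. With all 12 arrays the controls overlapped, at 9.27 to 9.52 in Hi and 9.36 to 9.55 in Lo. Between controls 2 of the 5 were higher in Lo with 10 arrays, beside 7.17% of all genes called. With 12 arrays 0 of the 5 were called there, beside 0% of all genes. Between treated groups 1 of the 5 was higher in Lo cells with 12 arrays, beside 22.3% of all genes called. With 10 arrays 3 were higher, beside 27.7%. On all 12 arrays the mean over 5 leukocyte markers lay between 6.44 and 6.72. That over 5 fibroblast and smooth muscle markers lay between 6.02 and 6.16. List means join unlike levels, such as KRT7 at 12.11 and EPCAM at 5.64, or LYZ at 9.11 and PTPRC at 4.13. With either set of arrays 1 leukocyte marker was called lower on PMX in Lo cells, between treated groups and for the interaction. For the interaction 4.81% of all genes were called with 12 arrays and 4.16% with 10. RMA values have no 0, so no marker is at 0, and no detection limit is known for them. In bulk RNA fewer cells of a type and less RNA per cell cannot be told apart, and the part of these marker differences in the results below was not tested.

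The question of the first comparison was whether PMX alters expression in cells grown at low folate (Lo PMX against Lo control). LIF and IL11 rose more than 2-fold in treated Lo cells with either set of arrays, and STAT3 rose 1.23-fold with 12 arrays and 1.20-fold with 10. IL6 was also above every Lo control, by a smaller step. The receptor genes IL6ST, LIFR and OSMR overlapped between the groups, while IL6R and SOCS3 lay below every Lo control. With 12 arrays 3 of the 9 genes were called (limma, Benjamini-Hochberg adjusted p under 0.05), all higher, where 10.7% of all genes were called. With 10 arrays 6 of 9 were called, 4 higher and 2 lower, where 11% of all genes were called. In both sets of arrays Lo PMX did not overlap Lo control for 6 of the 9, being above it for 4 and below it for 2. Over all genes the share above was 15.7% with 12 arrays and 21.6% with 10, and the share below 14.1% and 17.8%. The median change of the 9 members was 0.03 with 12 arrays and 0.17 with 10, beside 0.02 and 0.03 over all genes. Values after ± are standard errors of the model for changes and standard deviations for levels.

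**Figure D1:**
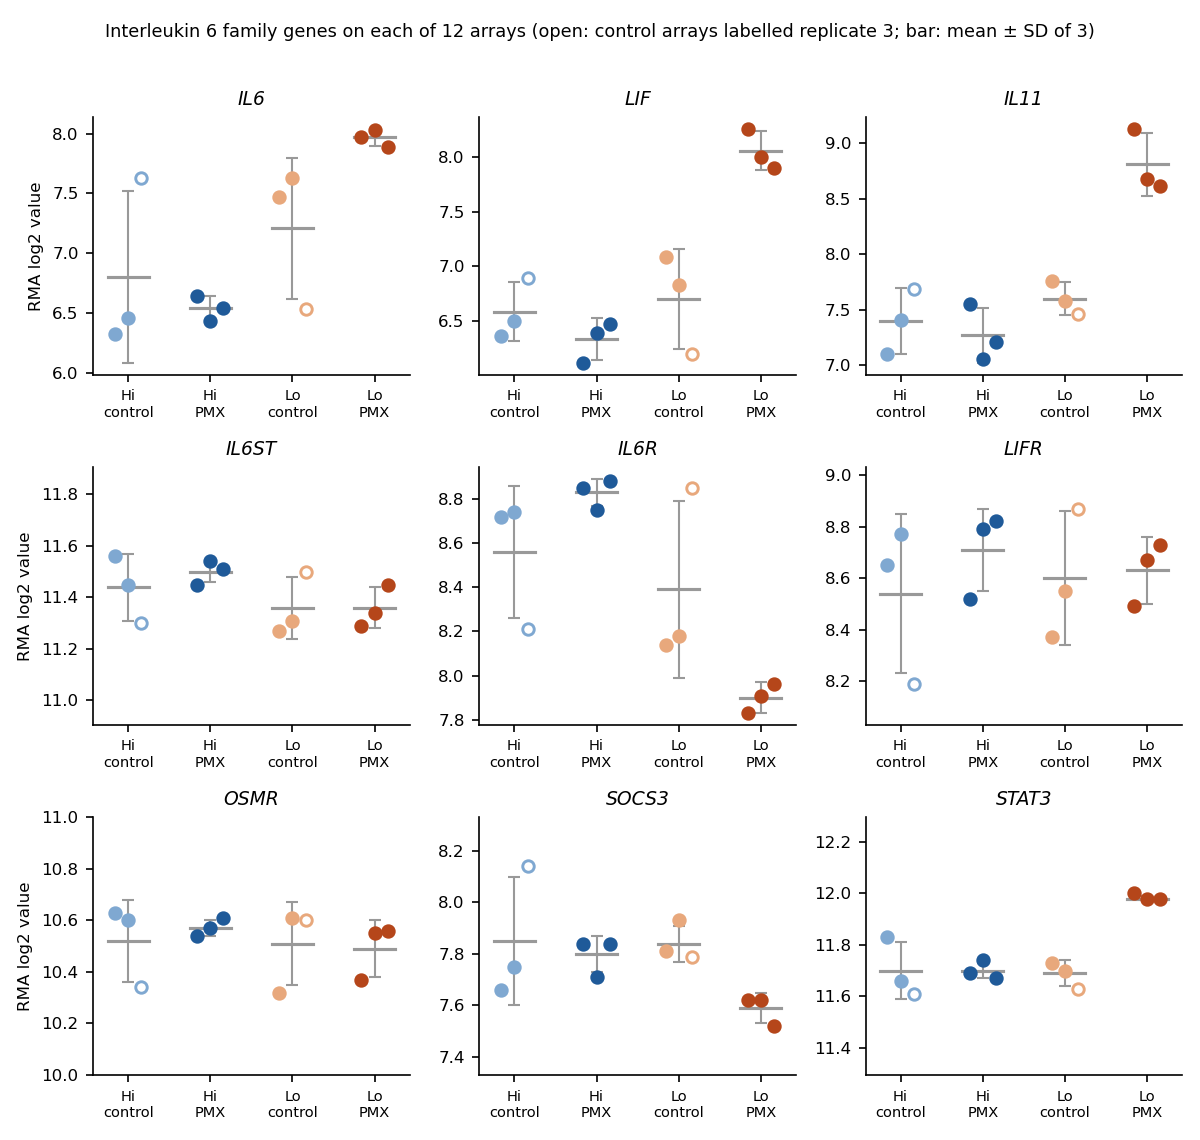
RMA log2 value (vertical axes, a separate range for each gene) of the 9 genes on each of the 12 arrays, in the 4 groups; points are arrays, open points are the control arrays labelled replicate 3, and grey bars are mean ± SD of 3. For IL6, LIF, IL11 and STAT3 all 3 Lo PMX points lie above every other array, and for IL6R and SOCS3 they lie below every other array.

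LIF, which signals through LIFR and gp130, stood at 8.26, 8.0 and 7.90 on the Lo PMX arrays. The Lo controls read 7.08, 6.83 and 6.19, the Hi controls 6.36, 6.5 and 6.89, and the Hi PMX arrays 6.11, 6.39 and 6.47. The lowest treated Lo array was above the highest of the other 9, and each of the 2 control arrays labelled replicate 3 read like the opposite folate level, at 6.89 in Hi control and 6.19 in Lo control. In Lo cells PMX raised LIF by 1.36 ± 0.20 on the log2 scale, 2.56-fold (adjusted p = 0.00107). With 10 arrays the rise was 1.10 ± 0.13, 2.14-fold (adjusted p = 0.000208). It was called in all 12 fits that left out 1 array, at 1.10 to 1.55.

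IL11, which signals through IL11RA and gp130, read 9.13, 8.68 and 8.62 on the Lo PMX arrays. The Lo controls were at 7.76, 7.58 and 7.46, the Hi controls at 7.10, 7.41 and 7.69, and the Hi PMX arrays at 7.55, 7.06 and 7.21. Again no array outside the treated Lo group reached the lowest of the 3. Lo control 3 stood nearer to the other Lo controls than for LIF. The array labelled Hi control 3, at 7.69, lay between Lo controls 1 and 2. The rise in Lo cells was 1.21 ± 0.17, 2.31-fold (adjusted p = 0.000847), and 1.14 ± 0.17, 2.20-fold, with 10 arrays (adjusted p = 0.00104). Leaving out single arrays kept the call in all 12 fits, at 1.05 to 1.30.

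IL6 followed another pattern. It read 7.97, 8.03 and 7.89 in Lo PMX, 7.47, 7.63 and 6.53 in Lo control, 6.32, 6.46 and 7.63 in Hi control and 6.64, 6.43 and 6.54 in Hi PMX. The array labelled Hi control 3 matched the higher Lo control at 7.63, and that labelled Lo control 3 lay within the range of the Hi PMX arrays. With 12 arrays the difference in Lo cells was 0.75 ± 0.31 and was not called (adjusted p = 0.16). With 10 arrays IL6 rose by 0.42 ± 0.09, 1.33-fold (adjusted p = 0.0102). That call was lost without Lo control 1 (adjusted p = 0.128) and was kept in the other 9 of 10 such fits, at 0.33 to 0.50. In these fits a control group can hold a lone array, which is assumed to vary like the other groups. Among the 12 fits that left out 1 array of the full set, IL6 was called only without Hi control 3 (adjusted p = 0.0336). That array is not in this comparison and enters it only through the shared spread. The same single omission gave limma calls of IL6R (adjusted p = 0.0484) and SOCS3 (adjusted p = 0.0329).

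Among the receptor genes, IL6R, whose product also circulates in a soluble form, was at its lowest in treated Lo cells. It read 7.83, 7.91 and 7.96 in Lo PMX, 8.14, 8.18 and 8.85 in Lo control, 8.72, 8.74 and 8.21 in Hi control and 8.85, 8.75 and 8.88 in Hi PMX. The treated Lo arrays were below all others, and the arrays labelled replicate 3 again read like the opposite folate level. The difference on PMX in Lo cells was -0.49 ± 0.17 with 12 arrays (adjusted p = 0.103) and -0.26 ± 0.07, 0.837 of the control level, with 10 (adjusted p = 0.0458). The call with 10 arrays was kept in 2 of 10 fits without 1 more array, with adjusted p up to 0.259; it was kept only without Hi PMX 1 or Hi PMX 3.

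IL6ST, the gene of gp130, ran from 11.27 to 11.56 over all 12 arrays. It read 11.29, 11.34 and 11.45 in Lo PMX and 11.27, 11.31 and 11.50 in Lo control, a difference of 0.00 ± 0.09 (95% interval -0.19 to 0.18), or 0.07 ± 0.08 with 10 arrays (-0.10 to 0.23). LIFR read 8.49, 8.67 and 8.73 in Lo PMX and 8.37, 8.55 and 8.87 in Lo control, a difference of 0.03 ± 0.16 (95% interval -0.30 to 0.37), or 0.17 ± 0.11 with 10 arrays (-0.07 to 0.41). OSMR read 10.37, 10.55 and 10.56 in Lo PMX and 10.32, 10.61 and 10.60 in Lo control, at -0.01 ± 0.10 (95% interval -0.23 to 0.20), or 0.03 ± 0.09 with 10 arrays (-0.18 to 0.23). None of these 3 was called in any comparison with 12 or 10 arrays without the replicate number in the fit. Their intervals for treated Lo cells leave out a change as large as that of LIF or IL11. LIFR and OSMR are neighbours on chromosome 5 with no protein-coding gene between them, and their profiles differed by a root mean square of 0.12 over 12 arrays; the closest pair among the 9 was IL6ST and OSMR at 0.07.

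STAT3, the transcription factor the receptors activate, rose in treated Lo cells by a small and even step. It read 12, 11.98 and 11.98 in Lo PMX, 11.73, 11.70 and 11.63 in Lo control, 11.83, 11.66 and 11.61 in Hi control and 11.69, 11.74 and 11.67 in Hi PMX. The Lo PMX arrays were above all the others and the other 3 groups overlapped. The rise was 0.30 ± 0.07, 1.23-fold (adjusted p = 0.0163), or 0.27 ± 0.07 with 10 arrays (adjusted p = 0.0359). With 12 arrays the call was lost without Lo control 3, Lo PMX 1 or Lo PMX 3 (adjusted p up to 0.0708). With 10 arrays it was lost without any 1 of the 5 Lo arrays (adjusted p up to 0.226), while the change itself stayed between 0.25 and 0.29.

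SOCS3, the feedback inhibitor that STAT3 induces, was lower in treated Lo cells. It read 7.62, 7.62 and 7.52 in Lo PMX, 7.81, 7.93 and 7.79 in Lo control, 7.66, 7.75 and 8.14 in Hi control and 7.84, 7.71 and 7.84 in Hi PMX. All 3 treated Lo arrays were below every other array. With 12 arrays the difference was -0.25 ± 0.11 and was not called (adjusted p = 0.174). With 10 arrays SOCS3 fell by 0.28 on the log2 scale, with a standard error of 0.08 (adjusted p = 0.0436), and this call was kept in 2 of 10 fits without 1 more array, those without Hi PMX 1 or Hi PMX 2 (adjusted p otherwise up to 0.340).

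**Figure D2:**
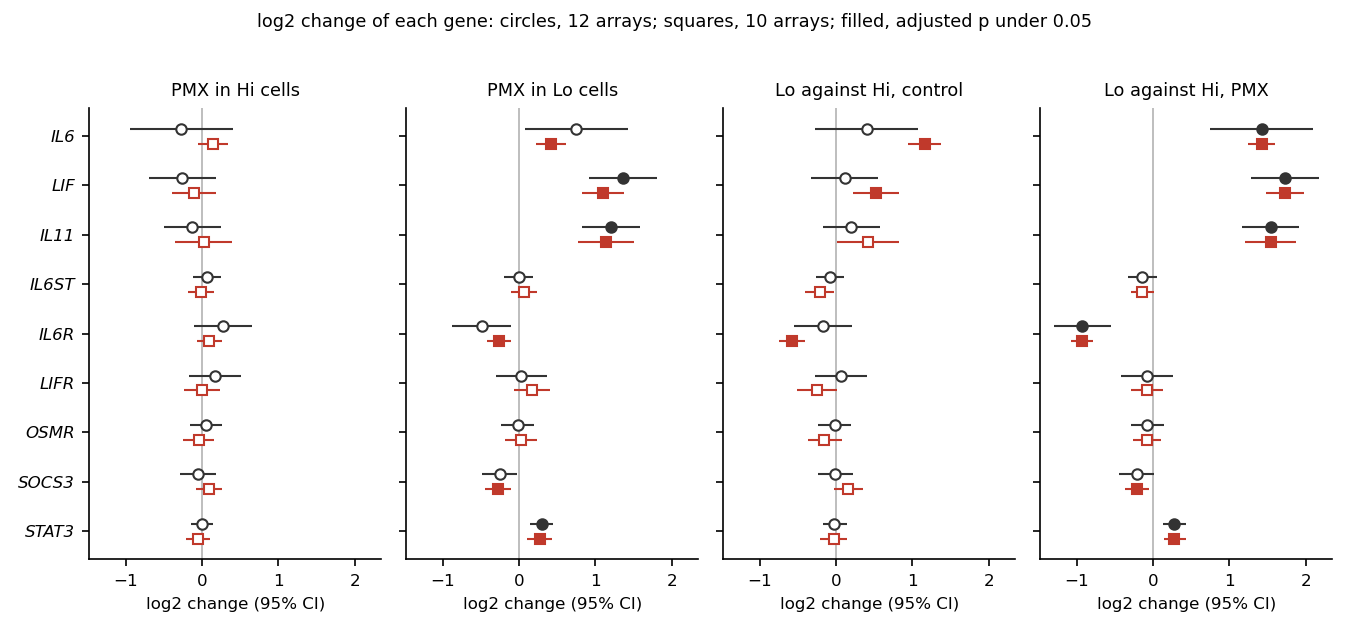
log2 change with its 95% confidence interval (horizontal axes) for the 9 genes in 4 comparisons; circles are fits with all 12 arrays, squares fits with 10, and filled symbols have an adjusted p under 0.05. Hi cells have no filled symbol, and LIF and IL11 have filled symbols for PMX in Lo cells and for Lo against Hi under PMX in both fits.

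Whether PMX acts on these genes at normal folate was addressed by Hi PMX against Hi control. None of the 9 genes was called in Hi cells with 12 or with 10 arrays by limma, where 0% of all genes were called, and 0 of the 9 had an unadjusted p under 0.05 in either fit. IL6 was at -0.27 ± 0.31 with 12 arrays and 0.14 ± 0.09 with 10 (95% interval -0.05 to 0.34). LIF was at -0.26 ± 0.20 and -0.10 ± 0.13 (-0.39 to 0.18 with 10 arrays), and IL11 at -0.13 ± 0.17 and 0.02 ± 0.17 (-0.35 to 0.39). The 10-array intervals of LIF and IL11 leave out their rises in Lo cells, and that of IL6 reached 0.34, beside its change of 0.42 ± 0.09 in Lo cells. The other 6 genes lay between -0.05 and 0.27 with 12 arrays and between -0.05 and 0.09 with 10.

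The comparison of untreated cells, Lo control against Hi control, gave different answers for the 2 sets of arrays. With 12 arrays 0 of the 9 genes were called by limma, where 0% of all genes were called, and 0 of the 9 had an unadjusted p under 0.05. IL6 was then at 0.41 ± 0.31, LIF at 0.12 ± 0.20 and IL6R at -0.17 ± 0.17. With 10 arrays 3 of 9 were called, 2 higher and 1 lower, where 7.17% of all genes were called. IL6 was higher in Lo controls by 1.16 ± 0.10, 2.23-fold (adjusted p = 3.14e-05), and IL6R was at -0.57 ± 0.08, 0.672 of the Hi level (adjusted p = 0.00106). With the labels kept IL6 had an adjusted p of 1, and the p-values with 10 arrays in this comparison depend on having left out the 2 controls that went against a folate difference. LIF was higher by 0.53 ± 0.14, 1.44-fold (adjusted p = 0.0447), but that call was kept in only 4 of 10 fits (adjusted p up to 0.308), being lost without Hi control 1 or 2, Lo control 1 or 2, Hi PMX 2 or Lo PMX 2. IL11 (0.42 ± 0.19), SOCS3 (0.16 ± 0.09), IL6ST (-0.21 ± 0.08), OSMR (-0.15 ± 0.10) and STAT3 (-0.03 ± 0.08) were not called. LIFR was at -0.25 ± 0.12 (adjusted p = 0.306), and it was called when replicate number entered the fit as a block, at -0.25 ± 0.07 (adjusted p = 0.0397).

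The 2 treated groups, Lo PMX against Hi PMX, hold neither of the control arrays labelled replicate 3. LIF, IL11 and IL6 were 2.69-fold to 3.32-fold higher in treated Lo cells, IL6R was lower and STAT3 slightly higher. The Hi PMX means of IL6 (6.54) and LIF (6.33) were below the medians of all probe sets on those arrays (7.26 to 7.28), and IL11 was near them at 7.27. Whether these Hi levels lie above background, and what that does to the fold values, was not tested. With 12 arrays 5 of the 9 genes were called, 4 higher and 1 lower, where 22.3% of all genes were called. With 10 arrays 6 were called, 4 higher and 2 lower, where 27.7% of all genes were called. LIF was higher in treated Lo cells by 1.73 ± 0.20, 3.32-fold (adjusted p = 0.000146), IL11 by 1.54 ± 0.17, 2.90-fold (adjusted p = 0.000114), and IL6 by 1.43 ± 0.31, 2.69-fold (adjusted p = 0.00598). IL6R was at -0.93 ± 0.17, 0.526 of the Hi PMX level (adjusted p = 0.00266), and STAT3 at 0.28 ± 0.07, 1.22-fold (adjusted p = 0.0116). These 5 calls held in all 12 fits without 1 array. The treated arrays are the same in both sets, so with 10 arrays these differences kept their size. Their standard errors were then 0.12 for LIF, 0.15 for IL11, 0.08 for IL6, 0.07 for IL6R and 0.07 for STAT3 (adjusted p from 1.32e-07 for IL6 to 0.00624 for STAT3). These changes in standard error come from leaving the 2 controls out of the shared spread, and not from more data on the treated groups. SOCS3 was at -0.21 ± 0.11 (adjusted p = 0.207), and with 10 arrays at -0.21 ± 0.07 (adjusted p = 0.0469), a call kept only without Hi PMX 2 among 10 such fits (adjusted p up to 0.155).

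Whether the response to PMX itself differed between Lo and Hi cells was tested by the interaction, the response of Lo minus that of Hi. LIF and IL11 were called with 12 and with 10 arrays, 2 of 9 in both fits, where 4.81% and 4.16% of all genes were called. For LIF the responses differed by 1.61 ± 0.29 (adjusted p = 0.0083), or 1.20 ± 0.18 with 10 arrays (adjusted p = 0.00321), and every fit without 1 array kept the call. For IL11 they differed by 1.34 ± 0.24 (adjusted p = 0.00976), or 1.12 ± 0.24 with 10 arrays (adjusted p = 0.0226). The IL11 call was kept in all 12 fits without 1 of the 12 arrays, and in 5 of 10 from the smaller set, being lost without Hi control 2, Hi PMX 2, Hi PMX 3, Lo control 1 or Lo control 2 (adjusted p up to 0.110). IL6 was at 1.02 ± 0.44 with 12 arrays (adjusted p = 0.225) and 0.27 ± 0.13 with 10 (adjusted p = 0.338), so a different response of IL6 in Lo and Hi cells was not shown. STAT3 was at 0.30 ± 0.10 (adjusted p = 0.109) and SOCS3 at -0.20 ± 0.15 (adjusted p = 0.523), and with 10 arrays at 0.31 ± 0.10 (adjusted p = 0.138) and -0.37 ± 0.11 (adjusted p = 0.104). IL6R was at -0.76 ± 0.25 (adjusted p = 0.106) and with 10 arrays at -0.35 ± 0.10 (adjusted p = 0.0965), which the replicate block turned into a call at -0.35 ± 0.09 (adjusted p = 0.0377).

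By construction the difference between the treated groups is the difference between the controls plus the difference in response. With 10 arrays IL6 divided it differently from LIF and IL11, which were alike. Of the 1.43 of IL6, 1.16 was present between the control groups and 0.27 was added in response. Of the 1.73 of LIF, 0.53 lay between controls and 1.20 in the response, and of the 1.54 of IL11, 0.42 and 1.12. For IL6R the parts were -0.57 and -0.35, and for STAT3 -0.03 and 0.31. These comparisons share arrays, so the parts are not independent of each other. With 12 arrays, in which the controls labelled replicate 3 enter both parts, the response was the larger part for IL6 too, which divided into 0.41 and 1.02, LIF into 0.12 and 1.61 and IL11 into 0.20 and 1.34.

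**Figure D3:**
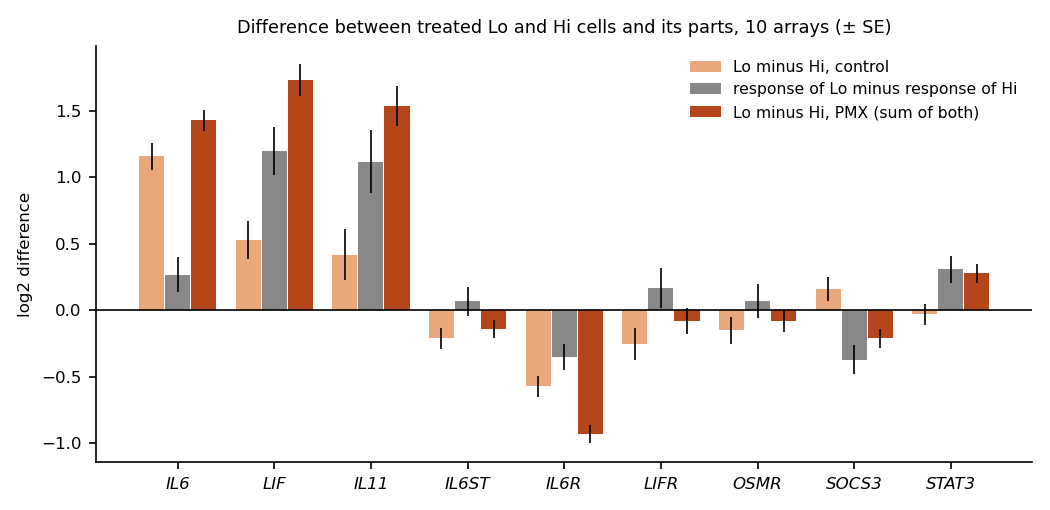
log2 difference (vertical axis; bars start at 0, error bars are standard errors) between Lo and Hi control arrays, between the response of Lo cells and that of Hi cells, and between Lo PMX and Hi PMX arrays, which is the sum of the other bars, for the 9 genes with 10 arrays. The control bar makes up most of the total for IL6 (1.16 of 1.43), and the response bar most of it for LIF (1.20 of 1.73) and IL11 (1.12 of 1.54). For IL6 this division turns with all 12 arrays, where the control difference is 0.41 and the response difference 1.02.

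The order of the 4 groups followed from these values. For IL6 the mean levels with 10 arrays were 7.97 ± 0.07 (SD, n = 3) in Lo PMX, 7.55 ± 0.11 (n = 2) in Lo control, 6.54 ± 0.10 (n = 3) in Hi PMX and 6.39 ± 0.10 (n = 2) in Hi control. The last 2 groups of that order overlapped, at 6.43 to 6.64 and 6.32 to 6.46, and the others did not. For LIF the order was Lo PMX at 8.06 ± 0.18, Lo control at 6.96 ± 0.18, Hi control at 6.43 ± 0.09 and Hi PMX at 6.33 ± 0.19. For IL11 it was Lo PMX at 8.81 ± 0.28, Lo control at 7.67 ± 0.13, Hi PMX at 7.27 ± 0.25 and Hi control at 7.25 ± 0.22. For both, with these 10 arrays, the 2 Hi groups overlapped and Lo control stood above them without overlap. For IL6R the order was turned, with Hi PMX at 8.83 ± 0.06, Hi control at 8.73 ± 0.02, Lo control at 8.16 ± 0.03 and Lo PMX at 7.90 ± 0.07, and no neighbours overlapped. With all 12 arrays Lo control overlapped Hi control for IL6, LIF, IL11 and IL6R. The gaps between these control groups therefore depend on leaving out the 2 controls that read like the opposite folate level. The share of all genes with such a gap is not given here.

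The other genes of the pathway were read from lists of 51 genes, chosen with earlier results of these data known, of which 47 had a usable probe set. On PMX in Lo cells 8 of 47 were called with 12 arrays, 6 higher and 2 lower, beside the 10.7% of all genes, and 8 with 10 arrays, again 6 higher and 2 lower. The median change of the 47 was 0.01 with 12 arrays and 0.00 with 10, beside 0.02 and 0.03 over all genes. In Hi cells 0 of 47 were called by limma and 0 had an unadjusted p under 0.05 with 12 or 10 arrays.

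Of the other ligands 5 of 8 were measured and 0 of them were called on PMX in Lo cells. OSM, the oncostatin M gene and direct neighbour of LIF among protein-coding genes, read 6.64, 6.48 and 6.59 in Lo PMX against 6.59, 6.53 and 6.49 in Lo control, a difference of 0.03 ± 0.10 (adjusted p = 0.905), or 0.01 ± 0.09 with 10 arrays, beside the 1.36 of LIF. EBI3, whose product pairs with that of IL27 to form a cytokine, read 10.93, 10.63 and 10.52 in Lo PMX, 10.49, 10.44 and 9.44 in Lo control, 9.52, 9.57 and 10.33 in Hi control and 9.66, 9.38 and 9.59 in Hi PMX. Like IL6 it had its arrays labelled replicate 3 at the opposite level. It was higher in Lo PMX than in Hi PMX by 1.15 ± 0.26 (adjusted p = 0.00783) and in Lo than in Hi controls by 0.92 ± 0.13 with 10 arrays (adjusted p = 0.00101), and on PMX in Lo cells it was at 0.57 ± 0.26 with 12 arrays (adjusted p = 0.215) and 0.23 ± 0.12 with 10 (adjusted p = 0.28). IL27 itself was not called in any of the 5 comparisons with either set of arrays.

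The other receptor chain, kinase and STAT genes that were called between treated Lo and Hi cells were lower in Lo cells. Of 4 other receptor chains 2 were lower in Lo PMX than in Hi PMX with 12 arrays, beside 22.3% of all genes called, IL27RA at -0.36 ± 0.11 (adjusted p = 0.0343) and IL31RA, the neighbour of IL6ST, at -0.40 ± 0.13 (adjusted p = 0.0431). IL27RA lost its call without Hi PMX 1, Lo PMX 1 or Lo PMX 3, and IL31RA kept its call only without Hi control 2, Hi control 3, Hi PMX 1, Lo control 1 or Lo control 3. With 10 arrays both were called again, IL27RA with an adjusted p of 0.0174, lost without Hi PMX 1 or Lo PMX 3, and IL31RA with 0.0114, kept in all 10 fits without 1 more array. IL11RA, the binding chain for interleukin 11, read 7.64, 7.38 and 7.51 in Lo PMX and 7.65, 7.46 and 7.58 in Lo control, a difference of -0.05 ± 0.10 (adjusted p = 0.815), or -0.04 ± 0.11 with 10 arrays. Of 6 measured kinases, STATs and adaptors 3 were lower in the same comparison with 12 arrays, beside the same 22.3%, and 4 with 10 arrays, beside 27.7%. They were STAT5B at -0.85 ± 0.16 (adjusted p = 0.00296), STAT5A at -0.86 ± 0.21 (adjusted p = 0.012) and the kinase gene JAK1 at -0.27 ± 0.08 (adjusted p = 0.0295), the last lost without Hi PMX 1, Hi PMX 2, Lo PMX 1 or Lo PMX 3. With 10 arrays JAK1 was called in all 10 fits without 1 more array (adjusted p = 0.0103 with the 10). JAK2 was then also called at -0.27 ± 0.08 (adjusted p = 0.0219), a call lost without Hi PMX 2, Hi PMX 3, Lo PMX 2 or Lo PMX 3 (adjusted p up to 0.088).

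STAT5A lies beside STAT3 on chromosome 17 with no protein-coding gene between them, and the neighbours differed in direction. STAT5A read 7.31, 7.36 and 7.23 in Lo PMX, 7.3, 7.59 and 8.18 in Lo control, 8.14, 8.18 and 7.41 in Hi control and 8.20, 8.20 and 8.08 in Hi PMX. The Lo arrays were the low ones, apart from the control labelled replicate 3, and the difference between Lo and Hi controls with 10 arrays was -0.71 ± 0.10 (adjusted p = 0.0011). STAT5B was lower in Lo controls by the same comparison at -0.44 ± 0.12 (adjusted p = 0.0404), a call kept in 5 of 10 fits and lost without Hi control 1, Hi PMX 2, Lo control 1, Lo control 2 or Lo PMX 1. On PMX in Lo cells STAT5B was at -0.51 ± 0.16 with 12 arrays (adjusted p = 0.0668) and fell by 0.43 with 10, with a standard error of 0.11 (adjusted p = 0.0218), a call lost without Lo control 1 or Lo PMX 3.

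Among 7 feedback genes, SOCS2 fell in treated Lo cells at -0.23 ± 0.06 with 12 arrays (adjusted p = 0.0337), lost without any 1 of the 6 Lo arrays and not called with 10 arrays (-0.20 ± 0.07, adjusted p = 0.104). SOCS1, whose product inhibits JAK kinases, read 8.68, 8.43 and 8.57 in Lo PMX, above the 8.05 to 8.39 of the other 9 arrays. It was higher in Lo PMX than in Hi PMX by 0.35 ± 0.10 (adjusted p = 0.0277), a call made with 10 arrays too (adjusted p = 0.0171) and lost in either set without Hi PMX 2, Hi PMX 3, Lo PMX 1 or Lo PMX 3. On PMX in Lo cells it was at 0.32 ± 0.10 (adjusted p = 0.0695) and with 10 arrays at 0.32 ± 0.11 (adjusted p = 0.0896), where the replicate block turned it into a call at 0.32 ± 0.07 (adjusted p = 0.00819). The sheddases ADAM10 and ADAM17, which release soluble receptor, were not called with 12 or 10 arrays, and with 10 arrays and the block ADAM10 was called at -0.22 ± 0.07 on PMX in Lo cells (adjusted p = 0.0476). IL31RA was called there by the same fit at -0.30 ± 0.08 (adjusted p = 0.0212), and without the block it was at -0.25 ± 0.11 (adjusted p = 0.226).

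Of 23 genes known to respond to gp130 and STAT3, 6 rose and 1 fell in treated Lo cells with 12 arrays, beside 10.7% of all genes called, and the same counts were obtained with 10, beside 11%. The list's median change was 0.07, or 0.09 with 10 arrays. VEGFA, which encodes an endothelial growth factor, read 9.36, 9.27 and 9.44 in Lo PMX and 8.16 to 8.64 on the other 9 arrays, a rise of 0.85 ± 0.10, 1.81-fold (adjusted p = 0.00022). CEBPB, a transcription factor gene of the acute-phase response, read 11.70, 11.49 and 11.17 in Lo PMX and 10.46, 10.49 and 10.20 in Lo control, a rise of 1.07 ± 0.18, 2.10-fold (adjusted p = 0.00264). JUNB, an AP-1 subunit gene, read 10.60, 10.38 and 10.55 against 9.87, 9.88 and 10.02, a rise of 0.59 ± 0.09, 1.5-fold (adjusted p = 0.00165). For VEGFA and JUNB the Lo PMX arrays were above all 9 others, and for CEBPB too, where the highest of the others was the Hi control labelled replicate 3 at 10.66.

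The interferon-responsive transcription factor gene IRF1 rose by 0.47 ± 0.10 (adjusted p = 0.00871), the survival gene MCL1 by 0.45 ± 0.10 (adjusted p = 0.0107) and the repressor gene BCL6 by 0.38 ± 0.09 (adjusted p = 0.0183). PIM1, a kinase gene that STAT3 and STAT5 induce, fell by 0.41 with a standard error of 0.11 (adjusted p = 0.0279). The rises of VEGFA, CEBPB, JUNB, IRF1 and MCL1 were called in all 12 fits without 1 array. BCL6 lost its call without Lo control 3, Lo PMX 1 or Lo PMX 3, and PIM1 without any 1 of the Lo controls, Lo PMX 2 or Lo PMX 3. With 10 arrays the genes called were the following, at 0.76 ± 0.09 for VEGFA, 0.98 ± 0.16 for CEBPB, 0.63 ± 0.09 for JUNB, 0.53 ± 0.10 for IRF1, 0.35 ± 0.09 for MCL1, 0.34 ± 0.08 for BCL6 and -0.39 ± 0.10 for PIM1. In fits without 1 more of these 10 arrays VEGFA, CEBPB and JUNB kept their calls in all 10, IRF1 lost its call without Lo control 1, and BCL6 without Lo control 1 or 2. MCL1 lost it without Lo control 2 or any 1 of the Lo PMX arrays, and PIM1 without Lo control 1 or 2, Lo PMX 2 or Lo PMX 3. None of the 10 acute-phase genes of the list (FGA, FGB, FGG, CRP, SAA1, SAA2, HP, HAMP, LBP and SERPINA3) was called in treated Lo cells with 12 or 10 arrays. Apart from HAMP (7.51), their means over 12 arrays were low, from 4.25 for FGG to 6.43 for LBP. The medians of all probe sets on the arrays were 7.24 to 7.33. At such levels the lack of calls says little about a response.

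**Figure D4:**
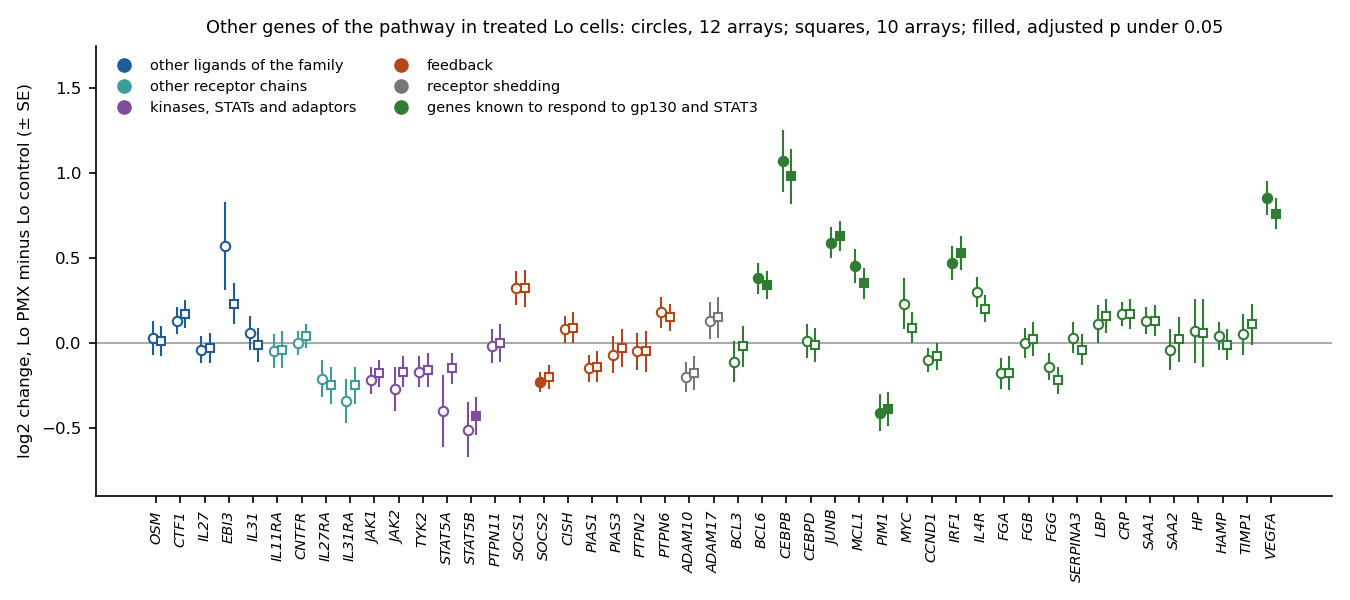
log2 change between Lo PMX and Lo control arrays (vertical axis, bars are standard errors) for the 47 measured genes of the pathway lists, coloured by list; circles are fits with 12 arrays, squares fits with 10, and filled symbols have an adjusted p under 0.05. CEBPB (1.07) and VEGFA (0.85) stand highest, and most genes of the lists lie near 0 with open symbols.

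Between the treated groups, Lo PMX against Hi PMX, 16 of the 47 were called with 12 arrays, 10 higher and 6 lower, beside 22.3% of all genes, and 18 with 10 arrays. Of the 23 responsive genes 8 were higher and 1 lower with 12 arrays. Those with the smallest p were VEGFA at 1.05 ± 0.10 (adjusted p = 4.32e-05), BCL6 at 0.60 ± 0.09, PIM1 at -0.66 ± 0.11, CEBPB at 1.10 ± 0.18, MCL1 at 0.59 ± 0.10 and the growth regulator gene MYC at 0.61 ± 0.15, and all 6 kept their calls in every fit without 1 array. MYC read 10.69 and 10.85 in Hi controls 1 and 2 against 11.33 and 11.28 in Lo controls 1 and 2, and was called between controls with 10 arrays at 0.53 ± 0.10 (adjusted p = 0.00602), a call lost without Hi control 1 or Lo control 1. Between controls 0 of 47 were called with 12 arrays by limma (1 had an unadjusted p under 0.05) and 4 with 10, beside 7.17% of all genes, which were EBI3, MYC, STAT5A and STAT5B. For the interaction 4 of 47 were called with 12 arrays, beside 4.81% of all genes, and 2 with 10, beside 4.16%. VEGFA differed in response by 1.04 ± 0.14 (adjusted p = 0.00173) and kept its call in all 12 fits. CEBPB (1.00 ± 0.26, adjusted p = 0.0476) kept its call only without Hi control 1, Hi PMX 1 or Lo PMX 3, and JUNB (0.50 ± 0.13, adjusted p = 0.0488) only without Hi control 3, Hi PMX 1 or Lo PMX 2. MCL1 (0.54 ± 0.14, adjusted p = 0.0467) kept it only without Lo control 1. With 10 arrays VEGFA (0.88 ± 0.13, adjusted p = 0.0025) and JUNB (0.63 ± 0.13, adjusted p = 0.0197) were called, the latter not without any 1 of the 4 controls.

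With 10 arrays the replicate block added calls among the pathway genes and took none away. It also raised the share of all genes called, from 7.17% to 13.2% between controls and from 4.16% to 9.44% for the interaction. Between treated groups it added 6 to the 18, while the share of all genes called rose from 27.7% to 35.6%. The cardiotrophin gene CTF1 was then higher in Lo cells at 0.17 ± 0.06 (adjusted p = 0.0357) and SERPINA3 at 0.23 ± 0.07 (adjusted p = 0.0218). The kinase gene TYK2 was lower at -0.25 ± 0.06 (adjusted p = 0.00718), as were the feedback genes PIAS3 at -0.21 ± 0.06 (adjusted p = 0.0133), PIAS1 at -0.19 ± 0.06 (adjusted p = 0.0386) and SOCS2 at -0.17 ± 0.06 (adjusted p = 0.0426). Between controls it added BCL6 at 0.30 ± 0.08 (adjusted p = 0.0286) and PIM1 at -0.29 ± 0.09 (adjusted p = 0.0483). For the interaction it added IRF1 at 0.55 ± 0.12 (adjusted p = 0.0143), MCL1 at 0.43 ± 0.11 (adjusted p = 0.0296), CEBPB at 0.72 ± 0.19 (adjusted p = 0.0334) and STAT5B at -0.41 ± 0.12 (adjusted p = 0.0495).

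The genes whose profiles over the arrays were most like those of the 3 ligands were different for each. Likeness was the root mean square difference between profiles after each profile's own mean was taken off, in log2 units, among all 18417 genes and with no test. For IL6 the nearest were the histone gene H2BC12 at 0.115, FSTL3, which encodes an activin-binding protein, at 0.117, and LRATD1 at 0.12 over 12 arrays, where IL6 itself varied by 0.661 about its mean. H2BC12 read 12.10, 11.89 and 12.13 in Lo PMX, 11.65 and 11.78 in Lo controls 1 and 2 and 11.96 in the Hi control labelled replicate 3, against 10.59 to 10.78 on the remaining 6 arrays. Probe sets of histone genes can share sequence, so the value of a single one is uncertain. Over 10 arrays H2BC12 (0.111) and FSTL3 (0.114) came first again and were followed by HECW2 (0.121).

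For LIF the nearest were IFI30, a lysosomal thiol reductase gene, at 0.135, CD274, which encodes the immune checkpoint ligand PD-L1, at 0.159, and TP53I3, a p53 target gene, at 0.165 over 12 arrays. CD274 read 8.94, 9.02 and 8.97 in Lo PMX and 7.01 to 7.96 on the other 9 arrays. IFI30 (0.143) and CD274 (0.144) were again first over 10 arrays, followed by the protease inhibitor gene CSTA (0.162). For IL11 the nearest were NFKB2, which encodes an NF-kB subunit, at 0.155, the vitamin D receptor gene VDR at 0.171 and CEBPB at 0.18. NFKB2 read 10.09, 9.86 and 9.96 in Lo PMX and 8.46 to 8.88 elsewhere. Over 10 arrays NFKB2 (0.166) stayed first and was followed by ZNF385A (0.178) and NIPAL4 (0.186). All these profiles share the same arrays and the group differences described above.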

How the data were processed

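Total RNA of each culture was hybridised to 1 Affymetrix whole-transcript array, per the labels' protocols. For each probe set the authors deposited a log2 value, computed with RMA and Partek 6.5 according to the submitters' processing notes. The RMA settings are not given in the sources used here. RMA scales every array to the same distribution, so a shift shared by most genes is not visible. The table held 33297 probe sets, of which 19460 had 1 gene symbol, 1754 several and 12083 none listed; 19429 of the 19460 Entrez identifiers matched RefSeq (GRCh38.p14). Where a gene had several probe sets (769 genes), that with the highest mean over 12 arrays stood for it. No further normalization or filter was applied. List genes without a 1-symbol probe set were not analysed here.

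A linear model with 1 mean per group was fitted to all 18417 genes (lmFit and eBayes of limma 3.58.1, R 4.3.3), with 8 residual degrees of freedom for 12 arrays and 6 for 10. The 5 two-sided contrasts were adjusted by Benjamini-Hochberg within each, and genes were called at an adjusted p under 0.05. The script was tested on simulated data. The p-values reflect only the spread among biological replicates of 1 line, and so few arrays per group limit how precise any value is. Members, lists, motifs and markers were chosen with earlier results of these data known. The text names the 9 members, up to 6 called genes of each list per contrast by p, and the 3 nearest profiles of each ligand gene; EBI3, MYC and others are also cited in further comparisons, and IL27, IL11RA, OSM, the sheddases and genes named because the block changed their call were named after their values were seen.

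Replicate numbers are shared between groups. Deviations from the group means of same-numbered arrays correlated above 0.1 in 11 of 18 pairs with 12 arrays (-0.656 to 0.514) and in 13 of 13 with 10 (0.115 to 0.543). The numbers were therefore taken to pair the 10 arrays but not the 12, which remains an assumption. With 2 arrays in a control group their deviations are mirror images, so the 13 pairs are not independent. Different-numbered pairs of the 10 arrays ranged from -0.543 to 0.439, so some correlated as highly as same-numbered ones. Blocked values with 10 arrays are printed for each member and pathway gene whose call they change. Unless the block is named, values with 10 arrays are from fits without it and leave this pairing out. Alternatives were median centring, another quantile normalization, leaving out dim genes, averaging probe sets, limma with trend and robust, fits of only the compared groups, the block, and leaving out each array.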

Additional observations from a re-analysis of the deposited data

Results flagged for a closer look

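For 6 of the genes described above the response to PMX differed between Lo and Hi cells by the interaction test with 12 arrays. These were 2 of the 9 members and 4 of the 47 pathway genes, beside 4.81% of all genes called. LIF differed by 1.61 on the log2 scale (limma, Benjamini-Hochberg adjusted p = 0.0083) and IL11 by 1.34 (adjusted p = 0.00976), and both were also called with 10 arrays. VEGFA differed by 1.04 (adjusted p = 0.00173) and was called with 10 arrays at 0.88. JUNB differed by 0.50 (adjusted p = 0.0488) and was called with 10 arrays at 0.63. CEBPB differed by 1.00 (adjusted p = 0.0476) and MCL1 by 0.54 (adjusted p = 0.0467), and with 10 arrays they stood at 0.72 (adjusted p = 0.122) and 0.43 (adjusted p = 0.103), or 0.0334 and 0.0296 with the replicate block. Leaving out 1 of the 12 arrays kept the calls of LIF, IL11 and VEGFA in all 12 fits. CEBPB and JUNB were called in only 3 of these 12 fits and MCL1 in only 1. Of the 8 endothelial markers 3 were lower by the 12-array interaction test, beside the same 4.81% of all genes. These were TEK, ERG and EGFL7, at -0.63, -0.78 and -0.97. The other 5 were not called, and the part of the markers in the differences above was not tested. Groups of 3 arrays are too small for the test of single outlying arrays, so none was run.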

How the results depend on the processing

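Under median centring, renewed quantile normalization, leaving out the dimmest genes, averaging probe sets, limma with trend and robust, fitting only the compared groups (not possible for the interaction) and the replicate block on 12 arrays, the number of members called stayed at 3 for PMX in Lo cells, 0 in Hi cells, 0 between controls, 5 between treated groups and 2 for the interaction. Leaving out arrays moved them. Without both controls labelled replicate 3, PMX in Lo cells gave 6, controls 3 and treated groups 6, and with the replicate block as well 6, 4 and 6, with 3 for the interaction. Leaving out 1 array gave 2 to 6 members for PMX in Lo cells (6 without Hi control 3 alone, 2 without Lo control 3, Lo PMX 1 or Lo PMX 3), 5 to 6 between treated groups (6 without Hi control 3), and 0, 0 and 2 throughout for the others. Pathway genes called went from 0 to 4 between controls without both arrays and to 6 with the block, and for the interaction from 4 to 2 with the block on 12 arrays, 2 without both arrays and 6 with both changes. With 10 arrays the block raised the share of all genes called. The share went from 11% to 18.4% for PMX in Lo cells and from 7.17% to 13.2% between controls. It went from 27.7% to 35.6% between treated groups and from 4.16% to 9.44% for the interaction.

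Values of members that were not called with 12 arrays and changed sign without both arrays, and, after the stroke, with the replicate block as well, were these. On PMX in Hi cells IL6 was at 0.14 / 0.16, IL11 at 0.02 / 0.08, IL6ST at -0.01 / -0.03, OSMR at -0.04 / -0.07 and SOCS3 at 0.09 / 0.10, and LIFR at -0.05 with the block. On PMX in Lo cells OSMR was at 0.03 without both. Between controls LIF kept its sign and was called at 0.53 / 0.53, LIFR was at -0.25 / -0.25 and SOCS3 at 0.16 / 0.16. In the interaction IL6ST was at 0.07 / 0.07, LIFR at 0.17 / 0.17 and OSMR at 0.07 / 0.07. The change of sign follows from leaving those arrays out of the means.

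Leaving out 1 of the 12 arrays gave ranges that cross 0 for these members, none of them called by these fits. On PMX in Hi cells they were -0.51 to 0.14 for IL6, -0.28 to 0.02 for IL11, -0.01 to 0.12 for IL6ST, -0.04 to 0.10 for OSMR, -0.15 to 0.09 for SOCS3 and -0.05 to 0.06 for STAT3. On PMX in Lo cells they were -0.05 to 0.07 for IL6ST, -0.08 to 0.17 for LIFR and -0.11 to 0.05 for OSMR. Between controls they were -0.08 to 0.37 for LIF, -0.11 to 0.18 for LIFR, -0.11 to 0.08 for OSMR, -0.11 to 0.13 for SOCS3 and -0.06 to 0.05 for STAT3. In the interaction they were -0.25 to 0.03 for LIFR and -0.16 to 0.03 for OSMR, and the range for IL6ST, -0.13 to 0.00, ended at no difference. Leaving out each of the 10 arrays was chosen after seeing the data. Signal over background was not used, so its limit is unknown.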
